A study of Mus musculus with 18 samples.

Results

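The 10 genes described here encode the MCM helicase and the factors that load and start it at replication origins: Mcm2, Mcm3, Mcm4, Mcm5, Mcm6, Mcm7, Mcm10, Cdt1, Cdc6 and Cdc45. They were taken by name from 22852 gene symbols, and all 10 passed the expression filter that left 11305 genes for testing. No measured value entered the rule that listed them, although the list was made with earlier results of these data known. Read pairs per gene were counted by RNA-Seq in bone marrow-derived macrophages (BMDMs) of C57BL/6 mice, with 3 biological replicates in each of 6 groups. Unstimulated BMDMs received no LPS, and LPS-stimulated BMDMs received a single dose of LPS at 10 ng/ml, read here as 3 h because the sample label gives no time. LPS-primed BMDMs were held for 24 h in LPS at 100 ng/ml. LPS-tolerant BMDMs had that same first dose and then fresh medium with LPS at 10 ng/ml for 3 h. The other two groups were LPS-primed and LPS-tolerant BMDMs given the platinum drug carboplatin at 25 µM; the methods place it 1 h before the first LPS dose, while the labels name LPS first. There was no carboplatin group without LPS, all cells were differentiated in L929 cell conditioned medium and are therefore a culture that can still divide, and what makes a replicate biological (mouse, culture or day) is not given in the sources used here.

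Before a cell copies its DNA, the origin recognition complex and Cdc6 hold an origin open for Cdt1, which brings the ring of Mcm2 to Mcm7 onto the DNA; this step is called licensing. Cdc45 and the GINS complex then turn the loaded ring into an active helicase, and Mcm10 helps it start. Geminin, the product of Gmnn, binds Cdt1 and blocks a further round of licensing. The transcripts of these genes are E2F targets that are high in proliferating cells, and macrophages grown from marrow in a CSF1-containing medium proliferate until a strong stimulus such as LPS slows them.

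Promoter windows of 300 bases around the RefSeq start, taken from a table of build GRCm38.p6, were found for 9 of the 10 genes, all but Mcm4, with a second window for Mcm7, and each matched GRCm39 once. E2F words (TTTGGCGC, TTTCCCGC, TTTGCCGC or TTTCGCGC on either strand) lay in a window of 6 of these 9 genes (Mcm3, Mcm5, Mcm6, Mcm7, Cdt1 and Cdc6), against 2.6% of the 27025 genes in the table. CCAAT, the word bound by NF-Y, lay in a window of 7 of the 9 genes (41.1% of all genes), and TTTGAA or TTCGAA, known as the CHR element of mitotic genes, in 3 of 9 (21.7%). Below are the stretches that carry the word in the 4 genes whose values are followed most closely or that load the ring, 5′ to 3′ on the gene's own strand, with the E2F words in capitals. Mcm5 (GRCm39 chr8:75835887-75836136, plus strand) and Mcm6 (chr1:128287517-128287692, minus strand) each hold a pair of overlapping words on opposite strands. For Cdt1 (chr8:123294774-123294803, plus strand) and Cdc6 (chr11:98798828-98798857, plus strand) the 30 bases around the word are given. Counted from the RefSeq start, the words lie 153 and 149 bases upstream in Mcm5, 110 and 106 bases upstream in Mcm6, where a further one outside the stretch shown lies 47 bases upstream, 138 bases upstream in Cdc6 and at base 33 of the transcript in Cdt1. In GENCODE, Cdc6 starts at chr11:98798507, so the Cdc6 stretch shown lies inside the annotated gene. A match is a description of the letters and not a bound site.
Mcm5: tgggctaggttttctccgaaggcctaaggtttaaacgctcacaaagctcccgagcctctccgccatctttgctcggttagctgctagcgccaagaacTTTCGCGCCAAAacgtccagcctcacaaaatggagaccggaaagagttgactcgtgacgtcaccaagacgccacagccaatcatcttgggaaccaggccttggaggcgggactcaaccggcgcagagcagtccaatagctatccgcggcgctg
Mcm6: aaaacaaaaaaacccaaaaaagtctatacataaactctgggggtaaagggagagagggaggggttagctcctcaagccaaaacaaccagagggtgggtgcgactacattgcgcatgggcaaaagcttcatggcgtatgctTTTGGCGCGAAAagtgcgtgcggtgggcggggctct
Cdt1: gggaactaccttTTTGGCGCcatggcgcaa
Cdc6: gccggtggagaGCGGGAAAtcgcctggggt

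Counted read pairs ranged from 6869667 to 14708099 per library (median 8986463), and 41.5% to 46.9% of all read pairs were not assigned to a gene, for want of a gene, of a unique gene or position, of alignment or of alignment quality. All 9 macrophage markers, Csf1r, Adgre1, Cd68 and Lyz2 among them, were above 3 counts in every group, and their summed normalised count was 150270 to 316870 per library. Of the B cell markers, Ighm reached 1697 counts in an unstimulated library and 305 in an LPS-stimulated library but at most 10 in the other groups, while Pax5 was at 0 in every library. The summed B cell markers were 269 to 1563 in unstimulated, 71.6 to 277 in LPS-stimulated and 5.63 to 12.7 in LPS-primed libraries. T and NK cell markers summed to at most 4.05 in any library. Of the progenitor markers, Kit reached 42 counts in unstimulated and 19 in LPS-stimulated libraries and at most 2 in the others, whereas Ly6a, which makes up most of the list, reached 1045 in unstimulated and 1811 in LPS-primed libraries. The list summed to 95.1 to 1043 in unstimulated and 1014 to 1918 in LPS-primed libraries. Neutrophil markers summed to 8.18 to 15.6 in unstimulated and 84.3 to 438 in LPS-primed libraries, nearly all of it S100a8, with Mpo at 0 throughout. Fibroblast or stromal markers summed to 0.82 to 6.36 in unstimulated, 20.3 to 49.3 in LPS-stimulated, 40.2 to 79.7 in LPS-primed and 50.6 to 84.4 in LPS-tolerant libraries. On GRCm39 (GENCODE), Cdt1 lies at chr8:123294703-123300293 and Mcm5 at chr8:75836140-75856231 on the plus strand, and Mcm10 at chr2:4994516-5017629, Mcm7 at chr5:138162844-138170684 and Cdc45 at chr16:18599195-18631551 on the minus strand. Exons of Mcm7 overlap those of Ap4m1 and Cops6 on the opposite strand, over 6.2% and 6.13% of its exon bases, and exons of Cdc45 overlap those of Ufd1 over 10.6%. The strand option of the counting is not given in the sources used here, so reads in those stretches cannot be assigned with certainty.

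In unstimulated BMDMs the ring subunits were not equally abundant. In CPM (counts scaled by library size) per kilobase of the canonical transcript, Mcm6 had the highest level at 48.6 ± 20.5 (CPM per kb, mean ± SD, n = 3), followed by Mcm7 at 24.2 ± 10.3 and Cdt1 at 19.3 ± 5.49. Mcm5 (13.3 ± 7.09), Mcm3 (11.03 ± 4.62), Mcm4 (10.3 ± 2.2) and Mcm2 (8.25 ± 3.98) came next, close to each other. Mcm10 (6.12 ± 1.96) and Cdc45 (4.83 ± 1.86) were lower, and Cdc6 was lowest at 1.29 ± 0.77. In unstimulated BMDMs each gene's libraries overlapped those of its neighbour in this order, except Cdc45 and Cdc6. On the same scale Cdt1 moved within this order: it stood at 8.03 ± 3.29 in LPS-primed BMDMs, at 24.3 ± 6.43 after the second dose and at 2.59 ± 1.04 after the single dose. In LPS-tolerant BMDMs its mean level was the highest of the 10, above Mcm6 at 9.82 ± 3.75. In LPS-stimulated BMDMs it was the ninth, next to Cdc45 at 2.61 ± 2.09 and above Cdc6 at 0.17 ± 0.10.

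**Figure D1:**
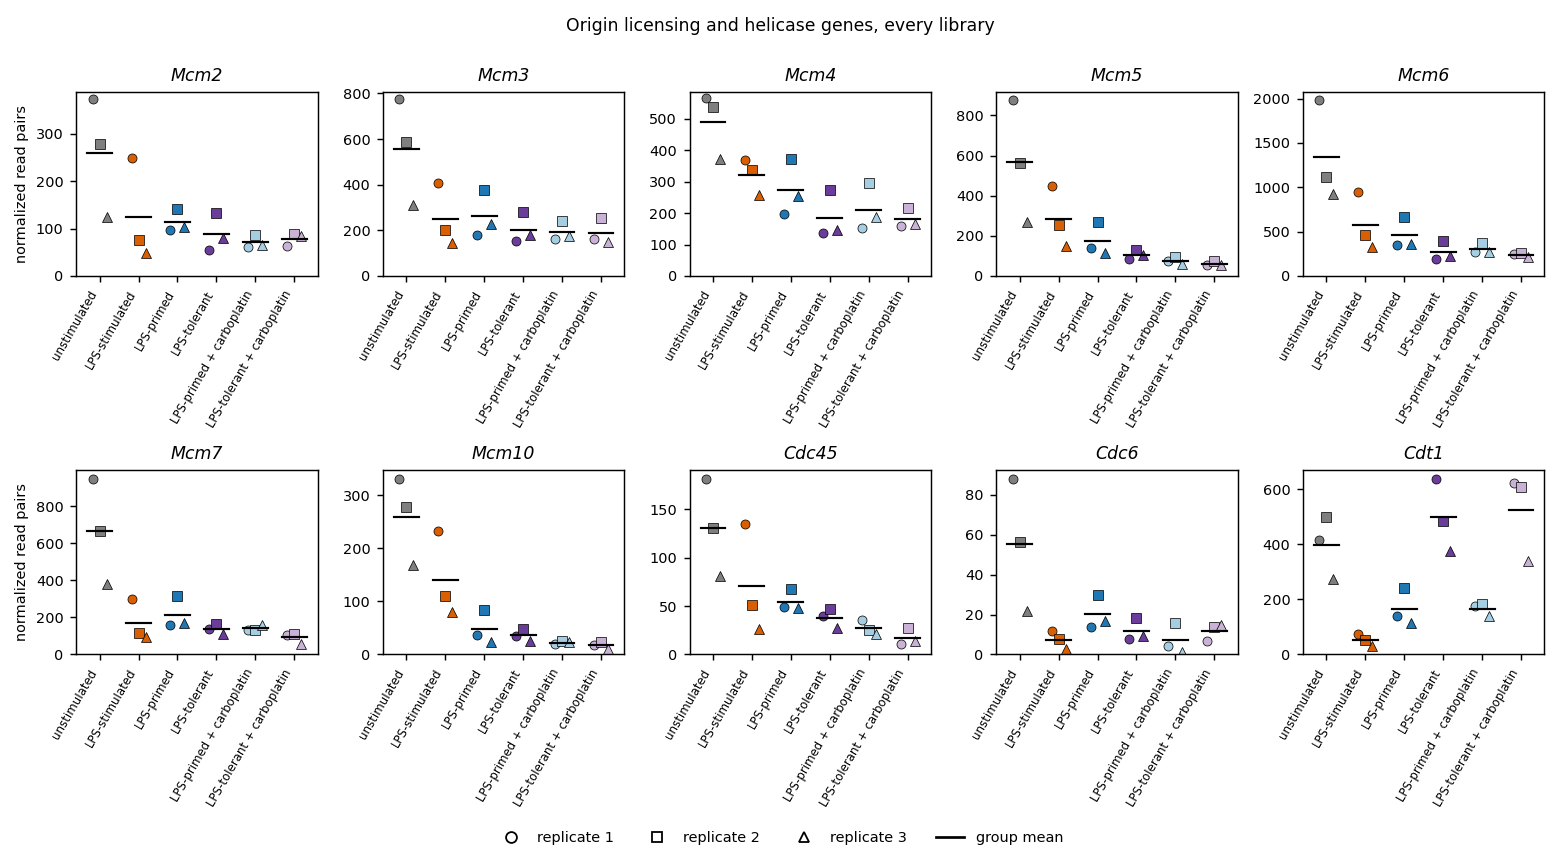
Normalised read pairs of each of the 10 licensing genes (vertical axis, linear, from 0) in each of the 18 libraries, grouped by treatment along the horizontal axis; points are libraries and lines are group means. Unstimulated libraries hold the highest group mean in every panel except that of Cdt1, whose LPS-tolerant libraries lie between 376 and 639 and whose LPS-stimulated libraries lie between 32.5 and 75.2.

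The comparison of LPS-primed with unstimulated BMDMs asks what a day in LPS did to these transcripts. All 10 genes had lower means after LPS, and 6 of them, Mcm4, Mcm5, Mcm6, Mcm7, Mcm10 and Cdt1, fell past the threshold (edgeR quasi-likelihood test, adjusted p under 0.05), where 13.1% of all tested genes did. At the study's limits, which add an absolute log2FC over 2, Mcm10 alone was left (7.47% of tested genes were). Mcm10, which helps start the helicase, fell most. Its normalised counts (read pairs scaled to a common library size with TMM) were 331, 277 and 168 in the unstimulated replicates. In the LPS-primed replicates they were 37.0, 84.3 and 23.4. The lowest unstimulated library was above the highest LPS-primed library, and the log2FC was -2.43 with an SE of 0.45 (adjusted p = 0.000696).

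Of the ring subunits, Mcm5 went from 878, 561 and 270 normalised counts in unstimulated to 138, 268 and 116 in LPS-primed libraries. The groups did not overlap, though unstimulated replicate 3 lay just above LPS-primed replicate 2. The log2FC of Mcm5 was -1.71 (SE 0.42, adjusted p = 0.00575). Mcm6, the most abundant subunit, went from 1987, 1114 and 926 to 353, 661 and 364, again without overlap. Its log2FC was -1.55 (SE 0.38, adjusted p = 0.00554). Mcm7 went from 951, 669 and 382 to 159, 316 and 168, also without overlap, with a log2FC of -1.64 (SE 0.41, adjusted p = 0.00631). Mcm4 changed least of the called genes: its 565, 538 and 371 became 196, 371 and 255. The lowest unstimulated and the highest LPS-primed library of Mcm4 met at nearly the same value. Its log2FC was -0.84 (SE 0.30, adjusted p = 0.0492).

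Cdt1, the loader, had 417, 499 and 275 normalised counts in unstimulated and 139, 243 and 115 in LPS-primed libraries. Every LPS-primed library was below every unstimulated library, and the fall was 2.40-fold (log2FC -1.27, SE 0.33, adjusted p = 0.00911). The remaining 4 genes had log2FC values between -1.09 and -1.46 and did not pass: Mcm3 had an adjusted p of 0.0511, Cdc45 of 0.0573, Mcm2 of 0.0855 and Cdc6 of 0.105 in the edgeR test. For Cdc45, which completes the active helicase, all 3 LPS-primed libraries (48.7, 67.2 and 47.8) were nevertheless below the unstimulated libraries (182, 130 and 80.9). In Mcm2, Mcm3 and Cdc6 an LPS-primed library reached above unstimulated replicate 3. Groups did not overlap in 6 of the 10 genes, with the LPS-primed libraries lower, against 21.3% of all tested genes.

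Libraries with the same replicate number deviated together. With the replicate number as a block all 10 genes fell (19.8% of tested genes did), and each of the 10 was lower in all 3 same-numbered pairs. The median log2FC of the 10 was -1.37, against -0.02 over all tested genes. Without unstimulated replicate 2 or without LPS-primed replicate 3, 4 genes remained called and Cdt1 was not among them, while 9 were called without unstimulated replicate 3. In bulk libraries, fewer dividing cells and less of these transcripts per cell cannot be told apart, and the part that the B cell, progenitor, neutrophil and fibroblast markers above play in the fall was not tested.

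**Figure D2:**
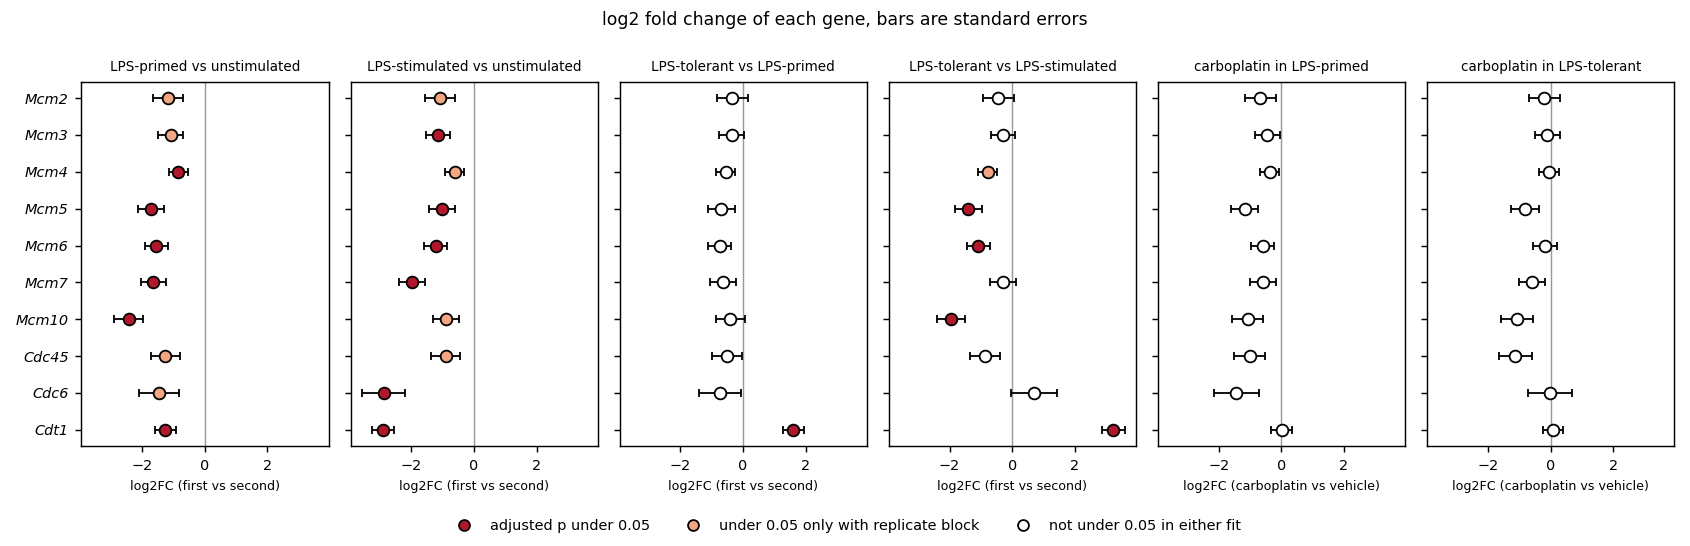
Log2FC of each licensing gene (points, with bars for ± SE) in 6 comparisons. Red points had an adjusted p under 0.05 in the edgeR fit without a block, light points only with the replicate number as a block, white points in neither; all 10 points lie below 0 in both comparisons with unstimulated BMDMs, and Cdt1 lies at 3.23 in LPS-tolerant against LPS-stimulated BMDMs.

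A single low dose of LPS gave another order of changes. In LPS-stimulated against unstimulated BMDMs Cdt1 and Cdc6, the pair of factors that load the ring, fell most, by 7.48-fold and 7.40-fold. Cdt1 had 75.2, 52.6 and 32.5 normalised counts in the LPS-stimulated replicates, against 417, 499 and 275 in the unstimulated ones. All LPS-stimulated libraries were far below the lowest unstimulated library (log2FC -2.90, SE 0.36, adjusted p = 4.63e-06). Cdc6 had 11.9, 7.6 and 3.0 against 87.9, 56.6 and 21.8, which again did not overlap, at a log2FC of -2.89 (SE 0.70, adjusted p = 0.00237). The LPS-stimulated libraries held only 3 to 11 read pairs of Cdc6, so its fold is imprecise.

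Mcm4 starts 434 bases from Prkdc, a DNA repair kinase gene read in the other direction, which fell here (log2FC -1.37, SE 0.25, adjusted p = 0.000275). Of the ring subunits, Mcm7 fell from 951, 669 and 382 to 298, 117 and 93.7 normalised counts. All 3 LPS-stimulated libraries were below the unstimulated ones, at a log2FC of -1.99 (SE 0.41, adjusted p = 0.000741). Ap4m1, whose exons overlap those of Mcm7, also fell in this comparison (log2FC -1.29, SE 0.24, adjusted p = 0.000235). Mcm3 (log2FC -1.15, adjusted p = 0.0213), Mcm5 (-1.01, 0.0482) and Mcm6 (-1.22, 0.0117) passed the edgeR test too, although LPS-stimulated replicate 1 reached above unstimulated replicate 3 in each. In Mcm5 that library had 447 normalised counts, against 255 and 147 in the other two LPS-stimulated libraries. Mcm2, Mcm4, Mcm10 and Cdc45 had log2FC values of -1.08, -0.61, -0.89 and -0.90 and did not pass, with adjusted p from 0.0718 to 0.112. Mcm10 was at 231, 110 and 80.8 after the single dose, with a mean between its unstimulated and its LPS-primed mean.

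In all, 6 of the 10 genes fell (26.9% of tested genes did), 2 of them, Cdt1 and Cdc6, past the study's limits (12% of tested genes passed these), and all 10 with the replicate block (33.8%). Groups did not overlap in Mcm4, Mcm7, Cdt1 and Cdc6, where 29.6% of tested genes lay lower without overlap. The median log2FC was -1.11 for the 10 genes and -0.09 for all tested genes. Calls of Mcm7, Cdt1 and Cdc6 were kept whichever library was left out, but those of Mcm3, Mcm5 and Mcm6 were not: 3 genes were called without unstimulated replicate 1, LPS-stimulated replicate 2 or LPS-stimulated replicate 3, and 9 without LPS-stimulated replicate 1. Both comparisons use the same unstimulated libraries, so their falls are not independent of each other. The summed B cell markers were also lower, and the neutrophil and fibroblast markers higher, in LPS-stimulated than in unstimulated libraries, and their part was not tested.

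Cdt1 was the 1 licensing gene called between LPS-tolerant and LPS-primed BMDMs. Its normalised counts were 639, 484 and 376 in LPS-tolerant BMDMs, against 139, 243 and 115 in LPS-primed BMDMs that had the same first dose. The lowest LPS-tolerant library was above the highest LPS-primed library, and all 3 were within or above the unstimulated range of 275 to 499. Cdt1 thus rose 3.02-fold (log2FC 1.60, SE 0.33, adjusted p = 0.0083), higher in 3 of 3 same-numbered pairs, in a comparison where 6.31% of tested genes were called and 3.6% rose. None of the 10 genes passed the study's limits, as 0.681% of tested genes did. Without LPS-primed replicate 3 the log2FC of Cdt1 was 1.39 and its adjusted p 0.0554, and the call was kept without each of the other 5 libraries. LPS-tolerant BMDMs had also received fresh medium and 3 h more of culture, and no group is described with a medium change alone. The second dose and the medium change therefore cannot be told apart.

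The other 9 genes had lower means in LPS-tolerant than in LPS-primed BMDMs, with log2FC from -0.34 for Mcm2 to -0.75 for Mcm6, and none passed the test (adjusted p from 0.268 to 0.755). Mcm6 had 195, 389 and 230 normalised counts in LPS-tolerant and 353, 661 and 364 in LPS-primed libraries. LPS-tolerant replicate 2 lay within the LPS-primed range of each of the 9 genes but Cdc45, whose LPS-tolerant libraries (39.3, 46.6 and 27.8) were all below the LPS-primed ones. Of these 9 genes 8 were lower in all 3 same-numbered pairs, and Mcm10 in 2 of 3.

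Set against the single dose, Cdt1 was 9.40-fold higher in LPS-tolerant BMDMs, at 639, 484 and 376 against 75.2, 52.6 and 32.5 normalised counts. The groups lay far apart (log2FC 3.23, SE 0.36, adjusted p = 3.6e-06), and 16.2% of tested genes were called higher in this comparison. It was the 1 licensing gene past the study's limits (8.04% of tested genes were). The summed B cell markers were 71.6 to 277 in LPS-stimulated and 8.86 to 11.2 in LPS-tolerant libraries, and the neutrophil markers 40.8 to 120 and 140 to 541. The progenitor markers summed to 43.6 to 715 and 635 to 1617, and the part of these and of the fibroblast markers above in this comparison was not tested. Mcm5, Mcm6 and Mcm10 were lower instead, where 18.3% of tested genes were. Mcm10 had 34.2, 48.4 and 24.7 normalised counts in LPS-tolerant and 231, 110 and 80.8 in LPS-stimulated libraries, without overlap (log2FC -1.96, SE 0.46, adjusted p = 0.00309). Mcm5 had 83.6, 130 and 105 against 447, 255 and 147, also without overlap (log2FC -1.40, SE 0.43, adjusted p = 0.0167). Mcm6 overlapped, since LPS-tolerant replicate 2 at 389 lay above LPS-stimulated replicate 3 at 325 (log2FC -1.08, SE 0.38, adjusted p = 0.0353).

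Mcm4, at a log2FC of -0.78, had an adjusted p of 0.0557 in the edgeR test and 0.00311 with the replicate block. The other 5 genes did not pass, among them Cdc6 (log2FC 0.68, SE 0.74, adjusted p = 0.511). Calls of Cdt1 and Mcm10 were kept whichever library was left out, while Mcm5 and Mcm6 lost theirs without LPS-stimulated replicate 1, LPS-tolerant replicate 1 or LPS-tolerant replicate 3. The median log2FC of the 10 genes was -0.62 (all tested genes 0.00) and turned to 0.09 without LPS-stimulated replicate 1.

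The same dose of LPS could also be compared as 2 responses, the second dose (LPS-tolerant minus LPS-primed) and the first (LPS-stimulated minus unstimulated). Equal times rest on the 3 h read here for the single dose, and the second response includes the change to fresh medium. For Cdt1 the log2FC was 1.60 in the second response and -2.90 in the first, and their difference was 4.50 (SE 0.49, adjusted p = 3.67e-06), where 10.5% of tested genes had a positive difference past the threshold. It was called under each of the 10 other fits and without each of the 12 libraries in turn. All 10 genes had differences above 0, with a median of 0.60 against 0.06 over all tested genes, and Cdt1 was the 1 gene called. The median was 0.26 without LPS-tolerant replicate 2 and 1.26 without LPS-stimulated replicate 1. Mcm7 (difference 1.35, SE 0.58, adjusted p = 0.104) and Cdc6 (2.15, SE 0.97, adjusted p = 0.128) came next. Of the genes on the opposite strand whose exons overlap those of Mcm7, Ap4m1 was called (difference 1.16, SE 0.33, edgeR adjusted p = 0.0169). Cops6 was not (-0.22, SE 0.24, edgeR adjusted p = 0.557). The part of shared reads was not tested. Of the 88 tested genes of the replication, E2F and mitosis lists described below, 11 were called with a positive difference and 1 with a negative one. Over all 11305 tested genes the counts were 1190 and 1501. The LPS-primed cells had entered the second response with lower levels of all 10 genes than the unstimulated cells had entered the first.

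Across the 18 libraries the genes other than Cdt1 went up and down together. Pearson's r of log2CPM was 0.57 to 0.96 over the 36 pairs without Cdt1, with a median of 0.86. Over the 9 pairs with Cdt1 it was -0.17 to 0.41, with a median of -0.06. Once each library was taken as its deviation from its group's mean, the medians were 0.81 without and 0.68 with Cdt1. The libraries share their groups and replicate numbers, so these coefficients are descriptions.

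**Figure D3:**
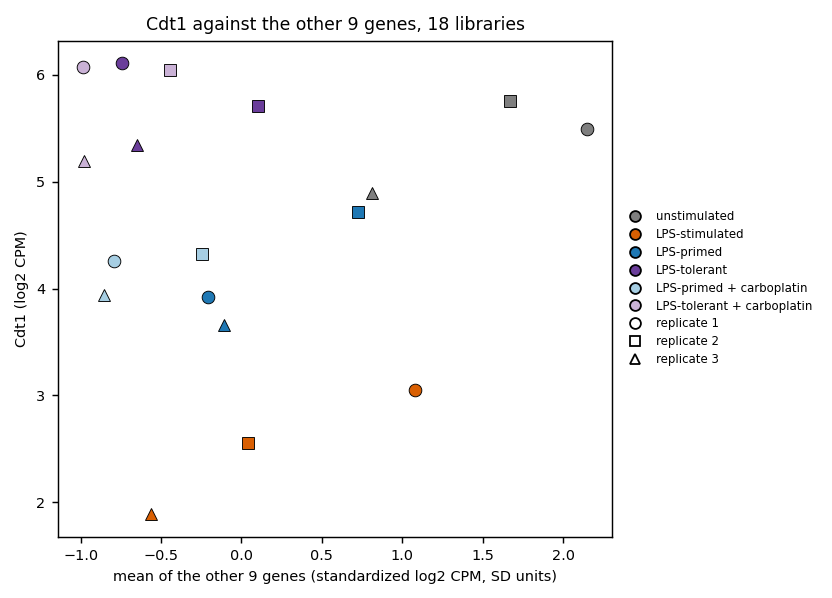
Cdt1 (log2CPM, vertical axis) against the mean standardised log2CPM of the other 9 licensing genes (horizontal axis, in SD units), 1 point per library, 18 libraries, coloured by group and shaped by replicate number. LPS-tolerant libraries with and without carboplatin lie at the top left, with Cdt1 at 5.20 to 6.11, unstimulated libraries at the upper right and LPS-stimulated libraries at the bottom, at 1.89 to 3.05.

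The genes most like the average of the 10 over the 18 libraries were Rrm2 (r = 0.96), Prim1 (0.96), Tmem106a (0.95), Uhrf1 (0.94), Lig1 (0.93), Brip1 (0.93), Nup133 (0.93), Itgb5 (0.93), Rrm1 (0.92) and Tcf19 (0.92). Rrm1 and Rrm2 encode ribonucleotide reductase, which makes the deoxynucleotides for DNA, Prim1 a primase subunit and Lig1 the ligase that joins Okazaki fragments. Uhrf1 carries DNA methylation through replication, and Brip1 is a DNA repair helicase.

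The other genes of replication were read against the 13.1% of all tested genes that fell in LPS-primed BMDMs, or 19.8% with the replicate block, and differences between lists were not tested. In LPS-primed against unstimulated BMDMs none of the 6 subunits of the origin recognition complex, which marks origins, was called (median log2FC 0.05, where the most abundant were Orc3 at 0.25 and Orc4 at 0.54; at an unadjusted p under 0.05, 2 of 6, against 35.9% of tested genes). With the replicate block Orc1 fell (-1.32, adjusted p = 0.0405) and Orc4 rose (0.54, adjusted p = 0.0435). Of the 15 GINS and helicase activation genes 7 fell, or 8 with the block (median -0.98), including Topbp1 (-0.85, adjusted p = 0.0233) and Dbf4, the activator of the Cdc7 kinase (-1.26, adjusted p = 0.00384). Of the 21 polymerase, clamp and ligase genes 8 fell, or 12 with the block (median -0.83), including the sliding clamp Pcna (-0.93, adjusted p = 0.0132). Fork protection genes fell in 2 of 6, or 3 with the block (median -0.63), the other MCM proteins in 1 of 3, and the licensing inhibitor and turnover list in 5 of 10, or 6 with the block (median -0.64). All 16 mitosis genes fell, by a median of -3.08, with the most abundant, Mki67 and Top2a, at -2.54 and -2.82. In the E2F family 3 fell, or 5 with the block, while E2f1 (0.61, adjusted p = 0.0187) and E2f3 (0.80, adjusted p = 0.0294), which encode activating E2F proteins, rose, joined with the block by E2f4 (0.33, adjusted p = 0.0303).

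After the single dose 26.9% of all tested genes fell, or 33.8% with the replicate block. Of the 16 mitosis genes 2 fell, Plk1 (log2FC -0.82, adjusted p = 0.0243) and Aurkb (-1.59, adjusted p = 0.00272), or 6 with the replicate block, and the median was -0.57; the difference between lists was not tested. Mki67 was at 0.21 (adjusted p = 0.63). The activation list fell in 11 of 15 (median -1.0), the polymerase list in 12 of 21 (median -1.006) and fork protection in 4 of 6 (median -1.23). Orc5 fell (-1.49, adjusted p = 2.46e-05) while Orc2 (0.71) and Orc4 (0.59) rose. E2f1 fell (-1.40, adjusted p = 1.19e-05), as did 6 more of the E2F family, while E2f3 (0.97), E2f4 (1.04) and E2f5 (1.71) rose. Cul4a, part of the ubiquitin ligase that removes Cdt1 protein, rose (0.60, adjusted p = 0.0282), against 4 of its list that fell.

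In LPS-tolerant against LPS-stimulated BMDMs all 16 mitosis genes were lower (median -2.62). Of the 88 tested genes of the 8 lists 26 were lower, these 16 included, and 7 were higher, against 18.3% and 16.2% of tested genes. Gmnn, the inhibitor of Cdt1, was higher (log2FC 1.44, SE 0.30, adjusted p = 0.00114), at 157, 214 and 181 normalised counts after the second dose and 99.0, 56.7 and 50.3 after the single dose. The Gmnn groups did not overlap. Its mean was lowest after the single dose: 68.7 in LPS-stimulated, 184 in LPS-tolerant, 257 in LPS-primed and 513 in unstimulated BMDMs. Against LPS-primed BMDMs Gmnn was not called, with a log2FC of -0.48 (adjusted p = 0.357 by the edgeR test). E2f1 (1.58), Orc5 (1.26), Mcm9 (0.63) and Rfc1, the large subunit of the clamp loader (1.01), were also higher in LPS-tolerant BMDMs. The E2F family went both ways here: of its 11 genes 3 were called higher, E2f1 among them, and 3 lower. Between LPS-tolerant and LPS-primed BMDMs, Pcna rose (log2FC 0.98, SE 0.26, adjusted p = 0.0325), the only one of the 88 tested genes of these lists to do so without the block, while 4 fell. With the block E2f4 (0.48, adjusted p = 0.00816) rose as well and 8 fell. Aprt, whose end faces that of Cdt1 across 891 bases, was at 0.59 there (adjusted p = 0.0867) and rose in LPS-tolerant against LPS-stimulated BMDMs (1.04, adjusted p = 0.000557).

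**Figure D4:**
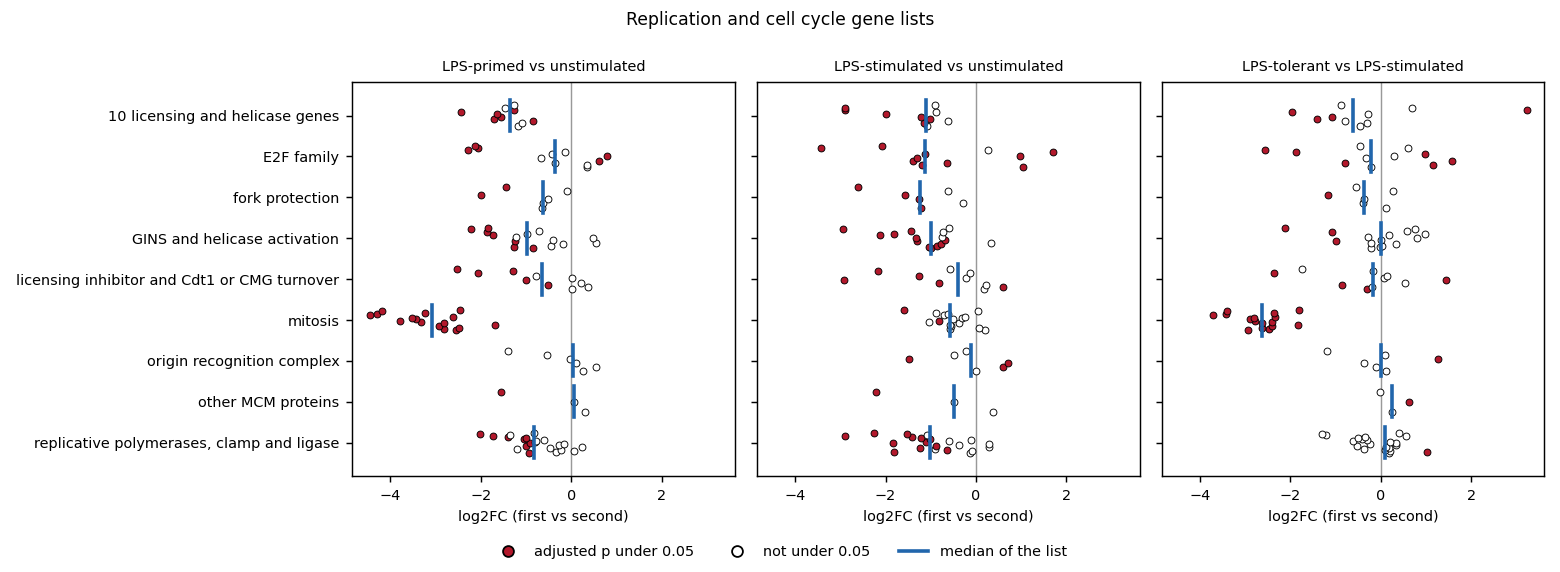
Log2FC of every tested gene (points) of the licensing genes and 8 lists of replication, E2F and mitosis genes in 3 comparisons, with the list median as a bar. The mitosis list sits at medians of -3.08, -0.57 and -2.62 in the 3 comparisons, the licensing genes at -1.37, -1.11 and -0.62, and the origin recognition complex close to 0 in each.

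Carboplatin cross-links DNA and so blocks replication forks. Its comparison with vehicle within each LPS state asks whether the drug moved these genes beyond LPS. No licensing gene was called in LPS-primed BMDMs, where 0.372% of tested genes were called, and at an unadjusted p under 0.05 there were 2, Mcm5 and Mcm10 (6.86% of tested genes). Mcm5 had 74.3, 94.0 and 61.4 normalised counts with carboplatin, against 138, 268 and 116 without. Every carboplatin library was below every LPS-primed library (log2FC -1.18, SE 0.44, adjusted p = 0.482). DESeq2 and limma-voom also called none without a block. DESeq2 with the replicate block, a fit added after seeing the data, called Mcm5 (adjusted p = 0.0316). It was the 1 of 10 alternative fits to do so, and the share of all tested genes it called is not given here. The edgeR fit with the block did not call Mcm5 (adjusted p = 0.109), nor did limma-voom with the block. Groups did not overlap in Mcm2, Mcm5, Mcm7 and Cdc45, where 7.68% of tested genes lay lower with carboplatin without overlap.

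No licensing gene was called in LPS-tolerant BMDMs either (0.425% of tested genes were), with 1, Cdc45, at an unadjusted p under 0.05 (6.73% of tested genes), and none by DESeq2 or limma-voom. Cdc45 had 10.5, 27.3 and 13.8 normalised counts with carboplatin, against 39.3, 46.6 and 27.8 without. The groups came close but did not overlap (log2FC -1.13, SE 0.53, adjusted p = 0.738). Mcm10, at 18.4, 22.8 and 11.03 against 34.2, 48.4 and 24.7, and Mcm5, at 53.8, 72.9 and 56.1 against 83.6, 130 and 105, also lay lower without overlap, as did 6.12% of tested genes. Mcm2, Mcm3, Mcm4, Mcm6 and Cdc6 had log2FC values between -0.20 and -0.01 in LPS-tolerant BMDMs, with standard errors of 0.31 to 0.71.

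Over both LPS states 9 of the 10 genes had log2FC values below 0 (median -0.51, all tested genes 0.01) and none was called, against 1.99% of tested genes. The lowest were Cdc45 (-1.07, SE 0.36, adjusted p = 0.187), Mcm10 (-1.07, SE 0.36, adjusted p = 0.177) and Mcm5 (-0.99, SE 0.31, adjusted p = 0.14), the 3 with an unadjusted p under 0.05 (11.9% of tested genes). With the replicate block these 3 fell (adjusted p = 0.0364, 0.0354 and 0.0232), where 4.48% of tested genes fell. DESeq2 without a block called Mcm5, and the share of all tested genes it called is not given here. Limma-voom called none of the 10 genes, with or without the block. Of the 10 alternative fits 4 called Mcm5 and 2 called Mcm10, and of the 9 that held Cdc45 2 called it. None of the 3 was called in the 12 fits without a block that each left out 1 library. Mcm5, Mcm10 and Cdc45 were lower in each of the 6 same-numbered pairs over both states, as was Mcm7, which was not called. The genes were named for their low values in these same libraries, so the pairs are a description. For Mcm10 the LPS-primed replicate 3 pair was nearly level, at 23.4 normalised counts without and 23.1 with carboplatin. Of the mitosis genes 11 of 16 fell (15 with the block), at a median of -1.33.

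Cdt1 was at 0.04 (SE 0.23, adjusted p = 0.978). It had 176, 184 and 141 normalised counts in LPS-primed BMDMs with carboplatin and 623, 610 and 339 in LPS-tolerant BMDMs with carboplatin. Both sets of libraries overlapped those without the drug. The carboplatin effect in the LPS-tolerant state minus that in the LPS-primed state was not called for any of the 10 genes nor for any tested gene (edgeR, 0% called; 131 tested genes, or 1.16%, and none of the 10 had an unadjusted p under 0.05; DESeq2 called none of the 10). It was largest for Cdc6, at 1.43 with an SE of 1.02, whose LPS-primed carboplatin libraries held 1 to 17 read pairs.

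**Figure D5:**
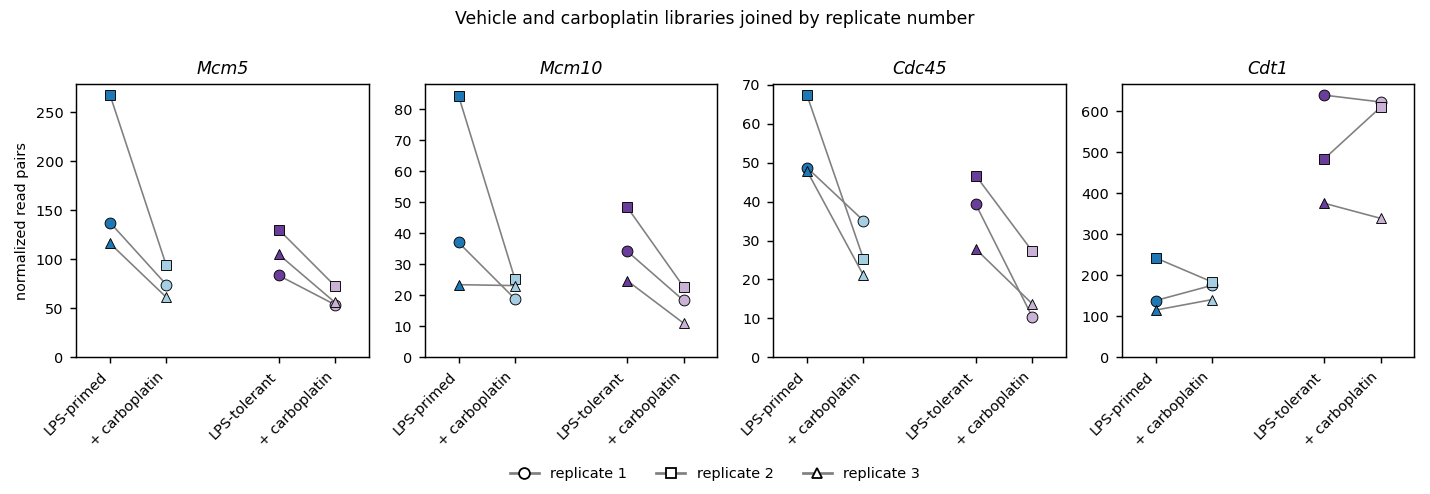
Normalised read pairs of Mcm5, Mcm10, Cdc45 and Cdt1 (vertical axis) with vehicle and with carboplatin in LPS-primed and LPS-tolerant BMDMs; lines join libraries with the same replicate number. All 6 lines fall for Mcm5, Mcm10 and Cdc45, while for Cdt1 3 of the 6 rise. The Mcm10 line of LPS-primed replicate 3 is nearly level, from 23.4 to 23.1.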

How the data were processed

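RNA-Seq read pairs were counted in 18 BMDM libraries, 3 in each of 6 groups that were read from the treatment labels. Per the labels and methods, the authors aligned reads to GRCm39 with HISAT2 and deposited raw counts per gene made with HTSeq; versions, annotation and strand option are not given in the sources used here. From these counts, edgeR 4.0.16 (R 4.3.3) fitted a mean for each group over all 18 libraries, with TMM scaling, the default expression filter (minimum count 10) and the quasi-likelihood F test; p-values were adjusted by Benjamini-Hochberg over 11305 tested genes and called under 0.05. The SE of a log2FC was its size divided by the square root of F. Genes were named as the 10 members, the 2 most abundant genes of each list and any called against its list's majority, the 10 genes most like the members, and neighbours with overlapping exons or starts within 1 kb; Plk1, Aurkb, Orc2 and Aprt, and E2f1, E2f4, Orc1, Orc5 and Gmnn where not called against their list, were chosen after their values were seen. The members and lists were chosen with earlier results of these data known. Libraries with the same replicate number shared deviations from their group means. Other pairs averaged below 0, which follows largely by construction, since deviations from a group mean sum to 0. The lowest correlation of a same-numbered pair was over 0.1 in 8 of 9 comparisons, the exception being the second minus first response (0.063). Hence a fit with the number as a block is given beside the calls of licensing genes and the list counts that it changes most, save for that response. Alternatives were RLE scaling, library size alone, other filters, only the groups compared, limma-voom 3.58.1, DESeq2 1.42.0, the study's limit of an absolute log2FC over 2, and leaving out each library; limma-voom and DESeq2 with the block were added after seeing the data. Gene positions were from GENCODE on GRCm39. Scripts were tested on simulated data.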

Additional observations from a re-analysis of the deposited data

Results flagged for a closer look

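Cdt1 was flagged because its response to LPS at 10 ng/ml differed between BMDMs with and without an earlier dose: the difference of the log2FC values was 4.50 (SE 0.49, adjusted p = 3.67e-06 by the edgeR quasi-likelihood test), from 1.60 in LPS-tolerant against LPS-primed BMDMs and -2.90 in LPS-stimulated against unstimulated BMDMs. It was the only licensing gene with such a difference in the fit without a block, and it lay between 4.24 and 4.88 when libraries were left out in turn. Such differences were not particular to Cdt1 among replication genes. Of the 88 tested genes of the replication, E2F and mitosis lists, 11 were called with a positive difference and 1 with a negative one. Over all 11305 tested genes the counts were 1190 and 1501. The second dose came with fresh medium, and their parts cannot be told apart. Equal times of the 2 responses rest on the 3 h read here for the single dose. Groups of 3 libraries are too small for a test of single outlying libraries.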

How the results depend on the processing

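Of the summary values under an alternative, 306 were classed as unchanged, 16 call counts were higher and 11 lower. For a call count, unchanged meant equal to or within 1.5 times that of the main fit. For a median log2FC it meant a move smaller than the spread between replicate libraries, whatever its sign. Some medians classed so turned sign, such as 0.11 for carboplatin in LPS-tolerant BMDMs without LPS-tolerant replicate 2. Of the single-gene values, 1427 kept direction and side of the threshold, 73 newly passed it, 31 no longer passed and 77 changed sign. The cause of these changes was not tested, except that the study's limit of an absolute log2FC over 2 is stricter by construction. It left 1 gene in LPS-primed against unstimulated (Mcm10), 2 in LPS-stimulated against unstimulated (Cdt1 and Cdc6), 1 in LPS-tolerant against LPS-stimulated (Cdt1) and 0 in LPS-tolerant against LPS-primed BMDMs. Library size alone, which moved the median of all tested genes to -0.26 in LPS-primed and -0.43 in LPS-stimulated against unstimulated BMDMs and to 0.30 in the second minus first response, called 10 in LPS-stimulated against unstimulated BMDMs. With the replicate block the counts were 10 for both comparisons with unstimulated BMDMs, 3 for carboplatin over both LPS states and 2 (Mcm7 and Cdt1) for the second minus first response, and Mcm4 was added in LPS-tolerant against LPS-stimulated BMDMs; the pairing changed no other call of the 10 genes. For that response, where the numbers did not pair every library, the block is given here alone. Limma-voom with the block called 10, 10 and 3 in the comparisons with unstimulated BMDMs and the second minus first response; DESeq2 with the block called 10 in LPS-stimulated against unstimulated BMDMs, 1 for carboplatin in LPS-primed BMDMs, 3 over both states and 2 in the second minus first response. Carboplatin over both states gave 1 (Mcm5) by DESeq2 and with only the groups compared.

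For the difference in carboplatin effect, Mcm7 and Mcm10 turned to -0.0019 and -0.00084 with RLE, -0.0043 and -0.0035 without a filter, -0.068 and -0.072 with the block, -0.16 and -0.26 by limma-voom, -0.070 and -0.099 by limma-voom with the block, and -0.091 and -0.11 by DESeq2 with the block; Mcm7 was -0.010 with only the groups compared. Cdt1 there was -0.0036 with the block, -0.054 by limma-voom and -0.019 by DESeq2 with the block. For carboplatin in LPS-tolerant BMDMs, Mcm4 was 0.0062 with library size alone and Cdc6 0.050, 0.11 with the block, 0.0089 by limma-voom and 0.12 by DESeq2 with the block.

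With each library left out, called genes ranged from 4 to 9 in LPS-primed and 3 to 9 in LPS-stimulated against unstimulated, 2 to 5 in LPS-tolerant against LPS-stimulated, 0 to 1 in LPS-tolerant against LPS-primed BMDMs, and 1 to 3 in the second minus first response (3 without LPS-stimulated replicate 1, 2 without LPS-primed replicate 2). Log2FC ranges that crossed 0 were, for LPS-tolerant against LPS-stimulated, Mcm2 -0.86 to 0.52, Mcm3 -0.59 to 0.23 and Mcm7 -0.58 to 0.38; for LPS-tolerant against LPS-primed, Mcm10 -0.75 to 0.26; for the second minus first response, Mcm4 -0.33 to 0.34, Mcm5 -0.14 to 0.80 and Cdc45 -0.011 to 1.21. For carboplatin, Cdt1 ranged from -0.19 to 0.39 in LPS-primed, -0.10 to 0.30 in LPS-tolerant and -0.062 to 0.23 over both; in LPS-tolerant BMDMs Mcm2 ranged from -0.45 to 0.22, Mcm3 -0.38 to 0.20, Mcm4 -0.22 to 0.34, Mcm6 -0.38 to 0.17 and Cdc6 -0.23 to 0.47. For the difference in carboplatin effect the ranges were Mcm3 -0.014 to 0.64, Mcm5 -0.084 to 0.59, Mcm7 -0.38 to 0.27, Mcm10 -0.65 to 0.35, Cdt1 -0.33 to 0.29 and Cdc45 -0.61 to 0.11. The fall or rise of Cdt1 in its 4 LPS comparisons was called under all 10 other fits, apart from the study's limits in LPS-primed against unstimulated and LPS-tolerant against LPS-primed BMDMs. Depth limits Cdc6, with 1 to 29.6 normalised counts per library outside the unstimulated group, most.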
